A study of Mus musculus with 8 samples.

Results

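The genes described here write or read methylation of histone H3 at lysine 9, the mark of silent chromatin. They are the methyltransferases Ehmt1, Ehmt2, Setdb1, Suv39h1 and Suv39h2 and the heterochromatin protein 1 (HP1) family Cbx1, Cbx3 and Cbx5. Members were every probe set of the array annotated to exactly 1 of these 8 symbols. This gave 20 probe sets for 7 of the 8 genes, out of 18193 genes with such a probe set on the array. No probe set was annotated to Suv39h1 in the table used, so this enzyme was not analysed here. A further 4 probe sets are annotated to Cbx3 together with the pseudogene Cbx3-ps5 and were kept apart.

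The samples are 8 mouse induced pluripotent stem (iPS) cell clones, 4 derived with ascorbic acid (vitamin C) and 4 derived without it, each measured on 1 Affymetrix mouse 430_2 array. Both groups share the same origin: MEFs, embryonic fibroblasts, of the Col-OKSM reprogrammable mouse, in which doxycycline switches on Oct4, Sox2, Klf4 and cMyc. The medium of both held serum, LIF and doxycycline, the drug that keeps the transgenes on, and irradiated MEFs served as feeders. Feeders were removed by preplating before RNA was taken. The labels call the clones biological replicates without naming separate embryos. The p-values set the difference between the groups against the spread of these clones within a group. The limma tests moderate this spread toward that of genes of like signal. Whether the spread of the clones covers separate embryos is not known.

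Ehmt2 (G9a) and Ehmt1 (GLP) work as a pair that adds mono- and dimethyl groups to lysine 9 in gene-rich chromatin. Setdb1 and the Suv39h enzymes add the trimethyl mark, Setdb1 mainly at retroelements and Suv39h1 and Suv39h2 at pericentric repeats. Cbx5 (HP1 alpha), Cbx1 (HP1 beta) and Cbx3 (HP1 gamma) bind the methylated lysine through a chromodomain. This mark is known as a barrier to reprogramming of mouse fibroblasts, and ascorbic acid is a cofactor of iron-dependent demethylases that remove it. The comparison asks whether the RNA of the enzymes and readers differs between the clones of the groups. Array data show RNA, and neither the mark nor the proteins were measured.

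The promoter windows of 3 members are shown because Cbx3 and Cbx5 are the members with a back-to-back neighbour and Ehmt2 is the enzyme with both probe sets lower in the clones derived with the vitamin. They come from RefSeq on build GRCm38.p6 and run from 250 bases before to 50 after the first listed start. All 8 genes matched this table. Capitals mark matches on either strand to the E2F motif (TTTCCCGC or TTTGGCGC), the CCAAT box (CCAAT) and the GC box (GGGCGG). No arrays of this study measure these windows, and they are given as descriptions.
Ehmt2, chr17:34898224-34898523, plus strand: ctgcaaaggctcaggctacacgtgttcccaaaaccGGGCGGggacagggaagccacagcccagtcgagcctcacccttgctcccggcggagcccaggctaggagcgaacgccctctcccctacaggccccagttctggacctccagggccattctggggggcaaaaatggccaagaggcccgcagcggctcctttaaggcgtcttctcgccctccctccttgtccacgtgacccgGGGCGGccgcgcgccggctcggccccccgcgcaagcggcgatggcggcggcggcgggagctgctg
Cbx3, chr6:51470366-51470665, plus strand: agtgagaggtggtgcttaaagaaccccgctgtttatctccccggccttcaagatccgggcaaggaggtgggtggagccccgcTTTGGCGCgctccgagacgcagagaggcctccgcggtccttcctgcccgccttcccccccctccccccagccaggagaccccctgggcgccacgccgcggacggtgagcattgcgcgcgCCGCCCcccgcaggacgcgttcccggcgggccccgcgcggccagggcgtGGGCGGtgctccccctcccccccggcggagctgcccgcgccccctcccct
Cbx5, chr15:103239803-103240102, minus strand: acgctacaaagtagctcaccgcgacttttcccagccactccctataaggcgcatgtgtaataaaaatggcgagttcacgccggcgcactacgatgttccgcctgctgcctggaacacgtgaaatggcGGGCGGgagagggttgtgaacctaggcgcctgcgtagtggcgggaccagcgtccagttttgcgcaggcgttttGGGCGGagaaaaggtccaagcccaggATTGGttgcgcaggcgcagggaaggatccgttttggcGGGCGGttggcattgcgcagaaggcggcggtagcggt

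The windows share many CpG dinucleotides. The Ehmt2 window holds 28, the Cbx3 window 34 and the Cbx5 window 29, against a median of 7 over 32851 windows in the table. The first windows of Ehmt1 and Suv39h2 hold 34 and 33, that of Cbx1 holds 22, and those of Setdb1 and Suv39h1 hold 15 each. Ehmt2, Suv39h1, Cbx3 and Cbx5 have a second listed start, and those windows hold 40, 37, 32 and 8. In the windows shown above, the GC box occurs 2 times for Ehmt2, 2 times for Cbx3 and 3 times for Cbx5, and 35.7% of all windows hold at least 1. The E2F match of the Cbx3 window belongs to a motif found in 1.56% of all windows, and the CCAAT box of the Cbx5 window to one found in 37.4%. None of the 3 windows holds the TATA box (TATAAA), which 13.6% of all windows do.

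None of the 7 measured genes differed between the groups past the test over all genes. In limma with Benjamini-Hochberg adjustment over 13125 genes, 0 of 7 members were called at an adjusted p under 0.05, and 3 genes (0.0229%) were called on the whole array. These were Rian, Meg3 and Tcf15. An unadjusted p under 0.05 was reached by 0 of the 7 members on their brightest probe sets and by 5.83% of all genes. When all probe sets of a gene were averaged, Ehmt2 reached one (limma, log2 difference -0.16, unadjusted p = 0.0192, adjusted p = 0.779). With ascorbic acid, 4 members read higher and 3 lower on their brightest probe sets. Of all genes tested, 6382 read higher and 6743 lower. The sign turned for Setdb1 under quantile normalization and for Suv39h2 under median centring. The members' median log2 difference was 0.0071 (all genes: -0.0042) and a median size of 0.054 (all genes: 0.081). Signals are linear intensities scaled to a trimmed mean of 500 per array, and log2 differences are with minus without ascorbic acid on the scale log2(signal + 16), which understates changes of dim probe sets. A probe set's signal depends on its probes, so levels were compared between clones and never between probe sets.

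**Figure D1:**
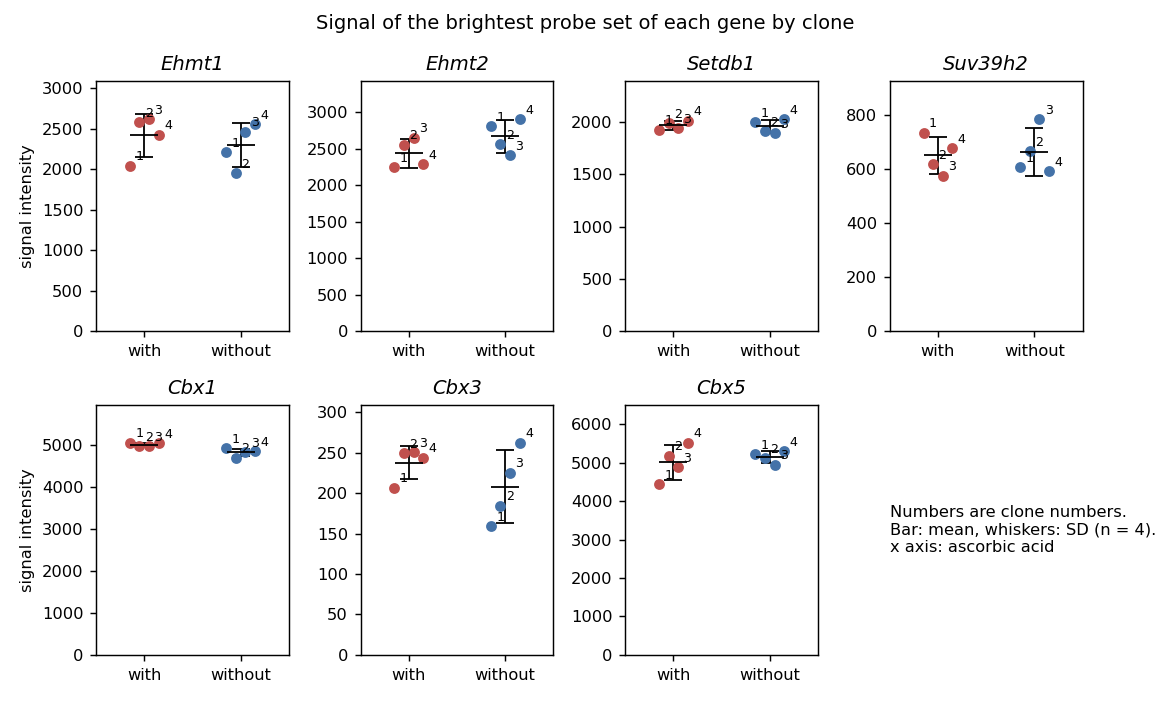
Signal intensity (y axis, linear, from 0) of the brightest probe set of each of the 7 measured members in every clone, with ascorbic acid left and without right. Points are clones with their numbers, bars are means and whiskers SD (n = 4). The groups overlap in every gene except Cbx1, where the 4 clones with ascorbic acid (4957 to 5038) lie above the 4 without (4691 to 4908).

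Among the enzymes, Ehmt2 was lower with ascorbic acid on both of its probe sets, without passing the test. Probe set 1460692_at, the brighter, read 2250.3, 2557, 2653 and 2290.5 in clones 1 to 4 with ascorbic acid, against 2808, 2563, 2409 and 2904 in clones 1 to 4 without. Clones 2 and 3 without the vitamin lay among the clones with it, so the groups overlapped. The log2 difference was -0.13 ± 0.076 (SE, limma, adjusted p = 0.844, n = 4 each), with a 95% interval of -0.30 to 0.035. As a change of the shifted signal this interval is -18.6% to 2.45%.

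The second Ehmt2 probe set, 1426888_at, separated the groups. It read 582, 618, 508 and 598 in clones 1 to 4 with ascorbic acid, against 688, 642, 653 and 632 in clones 1 to 4 without. All 4 clones with the vitamin were below all 4 without, the nearest pair being 618 with and 632 without. Its log2 difference was -0.18, a fold of 0.883, with an unadjusted limma p of 0.0502 and an adjusted p of 0.882 over the 27022 probe sets tested. Its exact two-sided permutation p was 0.0286, the smallest that 70 assignments of the clones allow. Groups that do not overlap in the lower direction occur in 1.69% of the probe sets tested.

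Ehmt1, the partner of Ehmt2, has 1 probe set, which read 2044, 2578, 2618 and 2429 with ascorbic acid, against 2214, 1949, 2464 and 2559 without. The lowest clone of all was clone 2 without the vitamin and the highest clone 3 with it, and the ranges overlapped over most of their length. This gave a log2 difference of 0.07 ± 0.097 (SE, limma, adjusted p = 0.936, n = 4 each), with a 95% interval of -0.14 to 0.29.

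Setdb1, the enzyme recruited by Trim28 to silence endogenous retroviruses, gave the closest agreement of the enzymes. Its brightest probe set, 1451833_a_at, read 1927, 1991, 1943 and 2016 with ascorbic acid, against 2000.3, 1917, 1894 and 2029 without. All 8 clones fell within 0.098 log2 units of each other. Between the groups the log2 difference was 0.0071 ± 0.053 (SE, limma, adjusted p = 0.989, n = 4 each), and the 95% interval of -0.11 to 0.12 corresponds to -7.18% to 8.80%. The other bright probe set, 1416670_at, read 778, 846, 759 and 765 with ascorbic acid, against 784, 849, 842 and 931 without. Clone 2 with the vitamin lay inside the range of the clones without it, and the log2 difference was -0.11 (limma, adjusted p = 0.884 over all probe sets, exact permutation p = 0.0857). The third Setdb1 probe set, 1458215_at, was below the limit on dim probe sets, a signal of about 93.7, and read at most 69.0 in any clone.

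Suv39h2, a pericentric trimethylase, has 3 probe sets that did not point one way. The brightest, 1422979_at, read 734, 618, 576 and 677 with ascorbic acid, against 608, 667, 785 and 593 without. The highest clone of all was clone 3 without the vitamin and the lowest clone 3 with it. The groups differed by -0.022 ± 0.11 log2 (SE, limma, adjusted p = 0.981, n = 4 each), with a 95% interval of -0.25 to 0.21. The second, 1433996_at, ranged from 432 to 550 with ascorbic acid, against 438 to 472 without, a log2 difference of 0.080. The dimmest, 1436561_at, ranged from 145 to 277 with ascorbic acid, against 129 to 259 without, at 0.21. Both had adjusted p-values above 0.9 in limma over all probe sets, 0.937 and 0.926.

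Among the readers, Cbx1 was the one gene whose groups did not overlap on its brightest probe set. Probe set 1433718_a_at read 5038, 4957, 4963 and 5030.5 with ascorbic acid, against 4908, 4691, 4821 and 4837 without. Every clone with the vitamin lay above every clone without, but by little: the group means of 4997 ± 43.0 with and 4814 ± 90.5 without (SD, n = 4 each) differ 1.04-fold. The log2 difference of 0.054 ± 0.049 (SE) had an unadjusted limma p of 0.292 and an adjusted p of 0.902. The exact two-sided permutation p was 0.0286, the smallest possible here. Non-overlapping groups were found in 1 of the 7 members and in 3.63% of all genes tested, 2.06% in the higher direction.

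The other 4 Cbx1 probe sets overlapped between the groups. Of these, 2 read higher with ascorbic acid and 2 lower, at log2 differences of -0.048 to 0.10. Probe set 1422935_x_at varied most, with 626 to 1156 in clones with ascorbic acid, against 582 to 1311 in clones without. The _x_at class can read several transcripts, and the gene's other _x_at probe set, 1436266_x_at, stayed between 2309 and 2495 with the vitamin, against 2353 and 2628 without.

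Cbx5, the reader of pericentric heterochromatin, was lower with ascorbic acid on 4 of 5 probe sets, and no tested one passed. The brightest, 1454636_at, read 4447, 5184, 4891 and 5518 with ascorbic acid, against 5222, 5114, 4951 and 5305 without. The clones with the vitamin held both the lowest and the highest value. The log2 difference was -0.043 ± 0.068 (SE, limma, adjusted p = 0.952, n = 4 each), with a 95% interval of -0.19 to 0.11.

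Probe set 1450416_at of Cbx5 had the largest difference of all members. It read 1283, 824, 840.3 and 949 with ascorbic acid, against 1105, 1074, 1055 and 1257 without. Clones 2, 3 and 4 with the vitamin were below every clone without, while clone 1 was above all of them. This probe set had a log2 difference of -0.22 (limma, unadjusted p = 0.100, adjusted p = 0.882 over all probe sets). Leaving out clone 1 with ascorbic acid, a clone singled out here because its value opposed the others, necessarily enlarges the difference. It was then -0.36 and did not pass either (limma, adjusted p = 0.703). The unadjusted limma p of this fit, 0.00159, was the lowest of the probe set over the alternative settings. Under the alternatives that kept every clone, the unadjusted limma p was 0.0731 to 0.154. Of the remaining probe sets, 1421934_at was at -0.11, 1421933_at at 0.025 and 1421932_at, below the dim limit, at -0.19.

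Cbx3, the reader also found along active genes, has 1 probe set of its own, 1432628_at, and it is dim. It read 207, 249, 251 and 244 with ascorbic acid, against 159, 185, 225 and 262 without. Clone 4 without the vitamin was the highest of all and clone 1 without it the lowest. The log2 difference was 0.20 ± 0.16 (SE, limma, adjusted p = 0.888, n = 4 each), with a wide 95% interval of -0.15 to 0.54. Of the 4 probe sets annotated jointly to Cbx3 and Cbx3-ps5, 3 were above the dim limit. 1416884_at read 7746 to 8368 with ascorbic acid, against 8122 to 8937 without, and 1448504_a_at 8719 to 9893 with, against 9242 to 10791 without. 1439421_x_at pointed the other way, 3705 to 5215 with ascorbic acid, against 3165 to 4162 without. None passed (limma over all probe sets, lowest adjusted p = 0.882), and which of the genes they read cannot be told apart.

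**Figure D2:**
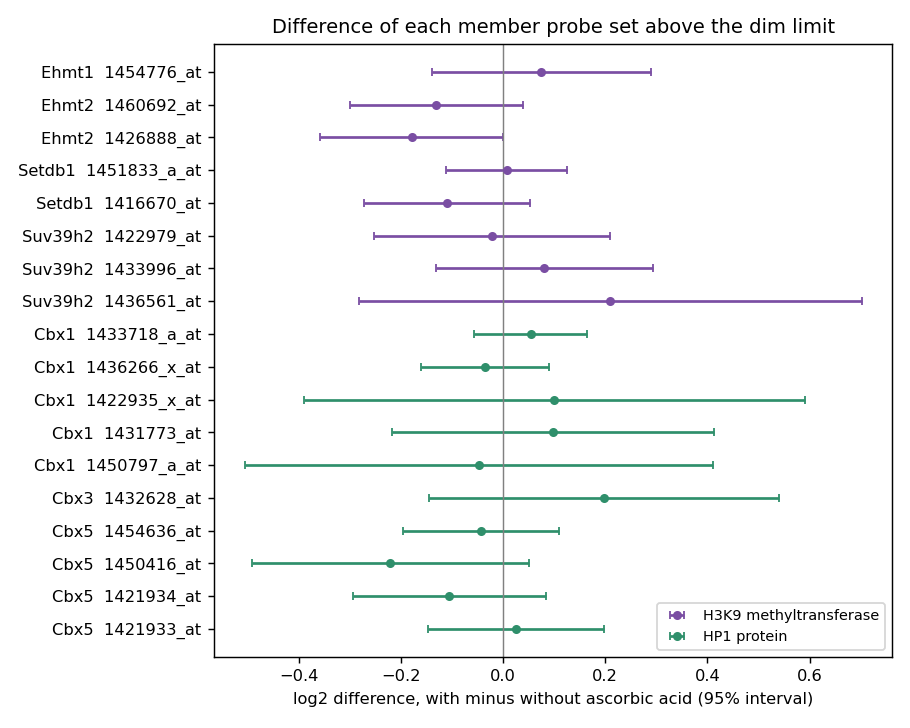
Log2 difference of the signal (x axis, with minus without ascorbic acid) for the 18 of 20 member probe sets above the dim limit, one per row, with 95% intervals from limma. Purple rows are methyltransferases and green rows HP1 proteins. Every interval reaches 0, the closest being Ehmt2 1426888_at, whose upper end is at 0.00023.

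Of all 20 probe sets, 9 read higher in the clones derived with the vitamin and 11 read lower. Of the 18 above the dim limit, 0 passed the adjusted test in limma and 0 had an unadjusted p under 0.05, where 0.0481% and 5.55% of the 27022 probe sets did. The groups did not overlap in 2 of the 18, one of Ehmt2 and one of Cbx1, in opposite directions; 3.4% of all probe sets tested have such groups.

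On the brightest probe sets, the clones themselves differed in several members at once. Clone 1 with ascorbic acid was the lowest of its group in 5 of the 7 genes (Ehmt1, Ehmt2, Setdb1, Cbx3 and Cbx5) and the highest in the other 2, Suv39h2 and Cbx1. Clone 4 without ascorbic acid was the highest of its group in the same 5 genes and the lowest in Suv39h2. Other probe sets of these genes did not all follow. Clone 1 with ascorbic acid was the highest of its group on Cbx5 1450416_at (1283). Clone 4 without ascorbic acid was the lowest of its group on Ehmt2 1426888_at (632), but again the highest on Setdb1 1416670_at (931). Beside these ranks, the array of clone 1 with ascorbic acid had the highest median signal of its group (156), the lowest summed signal of pluripotency markers (87773) and the lowest of replication genes (108728). The array of clone 4 without ascorbic acid had the highest summed signal of pluripotency markers of its group (111826). Its median signal (148) and its summed signal of replication genes (117346) were neither the highest nor the lowest of that group. The part of these array-wide values in the ranks was not tested. The ranks describe 4 clones per group and were picked out after the values were seen.

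The spread between clones within a group set how small a difference could be seen. On the brightest probe sets it was 0.021 log2 units in Cbx1, at the 0.0305th percentile of the genes tested. In Setdb1 it was 0.040, at the 0.884th percentile. Cbx5 (0.098) and Ehmt2 (0.12) also lay below the median of all genes, 0.15. Suv39h2 (0.17) and Ehmt1 (0.17) lay slightly above it, and Cbx3 (0.22), read by its dim probe set, at the 73.8th percentile. The brighter probe sets annotated jointly to Cbx3 and Cbx3-ps5 spread less: 0.057 on 1416884_at, 0.096 on 1448504_a_at and 0.19 on 1439421_x_at. limma moderates such spreads toward those of genes of like signal, which is why the Cbx1 difference has an SE of 0.049.

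**Figure D3:**
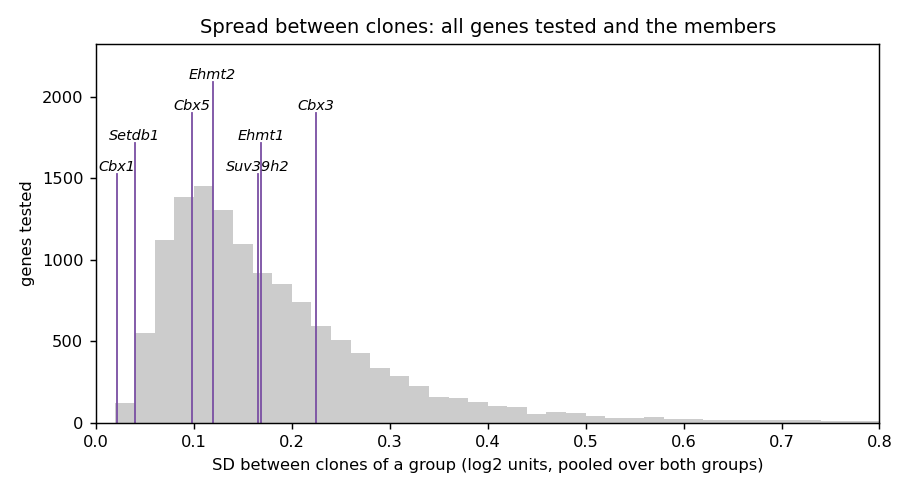
Number of genes (y axis) by the SD between clones of a group (x axis, log2 units, pooled over both groups) for the genes tested, with purple lines at the 7 measured members; genes with an SD above 0.8 lie outside the axis. Each gene is read by its brightest probe set. Cbx1 and Setdb1 stand at the left edge, and Cbx3, read by a dim probe set, is the most variable member at 0.22.

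Cbx3 and Cbx5 each start back to back with a gene for an RNA-binding protein that takes part in splicing. The first Cbx3 start lies 722 bases from one of Hnrnpa2b1 on the other strand, and the first Cbx5 start 545 bases from that of Hnrnpa1. Starts within 1000 bases in this arrangement are found for 12.2% of the 27026 genes in the promoter table. Hnrnpa2b1 read 11518 ± 442 with ascorbic acid and 12246 ± 506 without (SD, n = 4 each), a log2 difference of -0.088 (limma, adjusted p = 0.859). Hnrnpa1 read 5974 ± 708 with ascorbic acid and 6236 ± 771 without (SD, n = 4 each), a log2 difference of -0.061 (limma, adjusted p = 0.954). Neither neighbour differed past the test, as with the Cbx genes beside them. These neighbours were looked up after the members' values were seen.

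Proteins that partner or recruit these enzymes gave 0 calls among 29 tested genes, and of these 19 read higher with ascorbic acid and 10 lower. Their median log2 difference was 0.032. Over all 13125 genes tested, 3 were called, 6382 read higher and 6743 lower, and the median was -0.0042. The counts of the lists that follow stand beside these same values. Zfp462, a zinc-finger protein that binds Ehmt1, Ehmt2 and HP1, read 1645, 1503, 1486 and 1872 with ascorbic acid, against 1340, 1454, 1303 and 1284 without. All 4 clones with the vitamin were higher, at a log2 difference of 0.27 on the brightest probe set (limma, unadjusted p = 0.00566, adjusted p = 0.749), and of 0.083 with the mean of its probe sets (limma, unadjusted p = 0.329). Trim28, the scaffold that brings Setdb1 to its targets, read 15646 ± 1650.2 with ascorbic acid and 17623 ± 1815 without (SD, n = 4 each), with overlapping groups. Its log2 difference was -0.17 (limma, adjusted p = 0.844), and -0.042 under quantile normalization.

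The demethylases that remove the mark gave 0 calls among 11 tested genes, 5 of them reading higher with ascorbic acid and 6 lower, at a median log2 difference of -0.0090. Jmjd1c, a relative of the lysine 9 demethylase Kdm3a, read 3761, 3349, 3468 and 4084 with ascorbic acid, against 2973, 3279, 2833 and 2693 without. Each clone with the vitamin was above each clone without it. The log2 difference of 0.31 (limma, unadjusted p = 0.00159, adjusted p = 0.616) was larger than the members' on their brightest probe sets. With the mean of its probe sets it was 0.12 (limma, unadjusted p = 0.198), below Cbx3 at 0.20 in the same setting. Kdm4c, which acts on the trimethyl mark, was at 0.11 (limma, adjusted p = 0.905).

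The polycomb Cbx proteins share the chromodomain with HP1 but read methylated lysine 27. Of 4 tested, 0 were called, 3 were higher and 1 lower. Cbx2 read 703 ± 28.1 with ascorbic acid and 649 ± 47.5 without (SD, n = 4 each), a log2 difference of 0.12 (limma, adjusted p = 0.852) that was 0.035 with the mean of its probe sets. Cbx8, which is dim, was at 0.22 (limma, adjusted p = 0.929).

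Genes that this machinery helps to keep silent in mouse embryonic stem cells were also followed: germline, 2-cell and trophoblast genes. Of 30 listed, 17 were tested, 6 were below the dim limit and 7 had no probe set of their own. The 2-cell genes Zscan4c, Tcstv1, Tcstv3 and Tdpoz1 were among those not tested, so the counts say little about that class. None of the 17 was called. With ascorbic acid 7 read higher and 10 lower, at a median of -0.021 log2. Stag3, a meiotic cohesin subunit, read 1227, 1234, 1234 and 1109 with ascorbic acid, against 1363, 1275, 1434 and 1275 without. All 4 clones with the vitamin were lower, at a log2 difference of -0.15 (limma, unadjusted p = 0.0393, adjusted p = 0.828). Ddx4, a germ-cell RNA helicase, was at 0.25 (limma, adjusted p = 0.844) with overlapping groups.

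**Figure D4:**
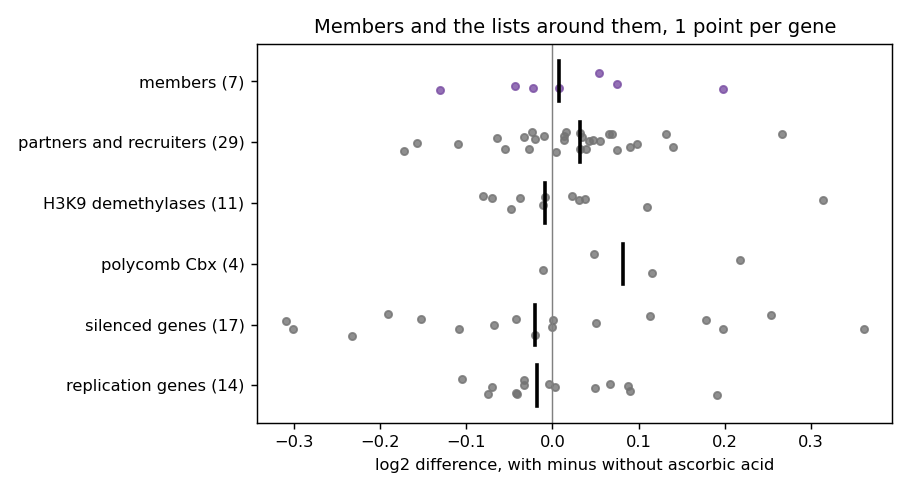
Log2 difference (x axis, with minus without ascorbic acid) of every tested gene of the members and of the lists around them, 1 point per gene, with the number tested in brackets; black bars are medians. The members lie between -0.13 and 0.20, and the rightmost point of the demethylases is Jmjd1c at 0.31.

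Several of these chromatin genes are known to be highest in dividing cells, so replication genes were read beside them. Of 14 tested, 0 were called, 6 read higher with ascorbic acid and 8 lower, and the median was -0.018 log2. Ccne1, which drives entry into S phase, was at 0.19 (limma, adjusted p = 0.844), and Cdc6, a replication licensing factor, at 0.089 (adjusted p = 0.888). Their summed signal was 108728 to 120077 with ascorbic acid, against 107482 to 119300 without.

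The pattern over the 8 clones most like each member's was also looked up, as a description without a test. The search ran over 13125 genes and 8 clones, and every closest gene had a Pearson r of at least 0.959. Picking the highest of so many values over 8 clones gives a high r by itself, so no relation between the genes follows. For the enzymes it was Bzw1 for Ehmt1 (r = 0.962), Hsd17b12 for Ehmt2 (0.959), Pnpla2 for Setdb1 (0.975) and Ms4a3 for Suv39h2 (0.969). For the readers it was Sh3bp2 for Cbx1 (0.975), Rnf20 for Cbx3 (0.994) and Tmem39a for Cbx5 (0.993).

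Of the pluripotency markers, 10 of 10 were above the dim limit in these clones. Among them, Pou5f1 read 10295 ± 948 with ascorbic acid and 11283 ± 292 without (SD, n = 4 each). The dim limit removes only the dimmest probe sets, and 17 of 20 fibroblast and feeder markers also lay above it. Lying above it therefore cannot check the label of the clones as iPS cells. Of the pluripotency markers 1 was higher and 9 lower with ascorbic acid, and 0 were called. Of 20 fibroblast and feeder markers 17 were tested, 4 higher and 13 lower with ascorbic acid, 0 of them called, and Lum, Dcn and Twist2 were below the dim limit. An unadjusted limma p under 0.05 was reached by 5 of the 17, 4 lower and 1 higher, against 5.83% of all genes, and the median log2 difference was -0.17. Of the pair with the smallest p, named after their values were seen, Postn, a matrix protein, read 317 ± 33.9 with ascorbic acid and 416 ± 22.8 without (SD, n = 4 each), with groups that did not overlap. Twist1, a mesenchymal transcription factor, pointed the other way, 201 ± 26.7 with ascorbic acid and 135 ± 21.1 without (SD, n = 4 each), with overlapping groups. Their summed signal was 40958 to 50240 with ascorbic acid, against 47578 to 52184 without. The part of feeder RNA in the members' values was not tested. Array medians lay between 134 and 156, and fewer cells of a type cannot be told apart from less RNA per cell.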

How the data were processed

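RNA of 8 iPS clones was measured on 1-colour arrays. The authors deposited linear signal intensities, 1 per probe set and array. GCOS, Affymetrix software, is named in the submitters' processing notes, without version or settings in the sources used here. Each array's mean after trimming 2% at each end was 500.

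From these values log2(signal + 16) was taken. The deposited scaling was kept, since array medians spanned 0.199 log2, within the limit of 0.2. Of 45101 probe sets, 64 controls and the 40% with the lowest mean were left out. The brightest of a gene's single-symbol probe sets stood for it. Of single symbols, 99.1% matched RefSeq GRCm38.p6 through Entrez identifiers and 0 were renamed. limma 3.58.1 in R 4.3.3 (lmFit, eBayes with trend) tested with minus without ascorbic acid, two-sided, with Benjamini-Hochberg adjustment over 13125 genes, or over 27022 probe sets. Exact permutation tests used 70 assignments. The scripts were tested on simulated data. Drawings used matplotlib 3.10.9.

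Members and lists were chosen with earlier results of these data known. All members are named, and from the partner, demethylase, polycomb Cbx, silenced gene and replication lists up to 4 called genes, or else the 2 with the smallest p. Marker genes are named outside this rule. The number of arrays limits the precision. Alternatives were scaling, pseudocount, filter, probe set choice, variance prior, array weights, a replicate block and leaving out each clone. Same-numbered clones deviated from their group means with correlations of -0.17 to 0.012, where all pairs across the groups gave -0.17 to 0.21. No pairing by number was visible, and these values cannot tell whether such clones were handled together.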

Additional observations from a re-analysis of the deposited data

Results flagged for a closer look

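Of 60 groups of 4 clones examined, 3 (5%) held 1 clone far from the other 3, where chance gives about 5%. Clone 1 with ascorbic acid read 207 for Cbx3 on 1432628_at, where the remaining clones of its group read 244 to 251. Clone 1 without ascorbic acid read 495 for Cbx5 on 1421933_at, the remaining clones of its group lying between 542 and 547. For Stag3, clone 4 with ascorbic acid was low at 1109, its group otherwise lying at 1227 to 1234. No cause was tested.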

How the results depend on the processing

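The count of members called was 0 for genes and 0 for probe sets under all 20 alternatives that give it (19 for probe sets), the replicate block included (0 of 7 genes called), and no gene of the other lists was called under any. Over all genes the count of 3 was 1 without the eBayes trend and 1 with robust estimation. Ehmt2 stayed lower under every alternative, from -0.18 to -0.090 on 1460692_at and from -0.21 to -0.12 on 1426888_at, where the adjusted p was at least 0.724. No probe set had an unadjusted p under 0.05 as reported. Under some alternatives this changed, as for 1426888_at under quantile normalization (limma, unadjusted p = 0.0460, adjusted p = 0.847). Over all alternatives, the lowest unadjusted limma p was 0.00159 for Cbx5 1450416_at, 0.0340 for 1426888_at and 0.0487 for 1460692_at. For 1450416_at this came from leaving out clone 1 with ascorbic acid, which also gave its lowest adjusted limma p, 0.703. Under the alternatives that kept every clone, the unadjusted limma p of 1450416_at was 0.0731 (replicate block) to 0.154 (eBayes without trend). Cbx3 and Cbx8 gave no value under the 60% filter. Cbx1 stayed higher on 1433718_a_at, 0.042 to 0.087 in the probe set fits. Differences near 0 changed sign: Setdb1 was at -0.0065 under quantile normalization and -0.052 as the mean of its probe sets, and Suv39h2 at 0.011 under median centring and 0.089 as the mean. Leaving out each clone in turn gave -0.0090 to 0.024 for Setdb1, -0.081 to 0.060 for Suv39h2, -0.091 to 0.013 for Cbx5 (lower unless clone 1 with ascorbic acid is left out) and -0.00084 to 0.15 for Ehmt1. It gave -0.0092 to 0.043 for Cbx5 1421933_at, -0.21 to 0.061 for Cbx1 1450797_a_at, -0.093 to 0.29 for Cbx1 1422935_x_at and -0.019 to 0.40 for Cbx8. The cause was not tested.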

Other observations

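Ehmt1 and Ehmt2 act as a pair, so their balance was read within each array, a choice made after the values were seen. The log2 value of Ehmt2 minus that of Ehmt1 was 0.14, -0.012, 0.019 and -0.084 in clones 1 to 4 with ascorbic acid, against 0.34, 0.39, -0.032 and 0.18 in clones 1 to 4 without. The groups overlapped through clone 3 without the vitamin. The difference was -0.21, with an exact two-sided permutation p of 0.143 (n = 4 each). Cbx5 minus Cbx1, the other of 2 balances computed, differed by -0.097 (exact permutation p = 0.229), with overlapping groups. The p-values are unadjusted.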
